A study of Mus musculus with 6 samples.

Results

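The expression of 10 genes of glycolysis and its transporters was followed, out of 20687 gene symbols measured: the hexokinases Hk1, Hk2 and Hk3, the pyruvate kinases Pkm and Pklr, the lactate dehydrogenases Ldha and Ldhb, the glucose transporters Slc2a1 and Slc2a3, and the lactate exporter Slc16a3. They are a set named for their function, and 10 of 10 passed the filter on low counts that left 15212 genes for testing. The study measured RNA from 3 samples of the KP cell line, which its title ties to lung tumours and whose genotype the labels do not state, and from 3 samples of tumour-bearing lung. Each lung sample pooled 3 mice from a separate experiment, in which 100000 KP cells had been given by tail vein to C57BL/6 mice and the lungs were taken 28 days later and digested with collagenase. All samples carry the strain C57BL/6, no lung without injected tumour cells is among the samples used here, and nothing says that the cell line samples were separate cultures, so p-values measure only the spread between these samples, which may be technical.

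Glycolysis turns glucose into pyruvate in the cytosol, and several of its steps can be run by alternative enzymes, called isozymes, that come from different genes or from alternative exons of 1 gene. Facilitated carriers bring glucose in, a hexokinase traps it by phosphorylation, pyruvate kinase makes the final ATP and pyruvate, and lactate dehydrogenase interconverts pyruvate and lactate. Proliferating and tumour cells are known for using Slc2a1 (GLUT1), Hk2, the M2 form of Pkm and Ldha, whereas Hk3 and Slc2a3 (GLUT3) are known from leukocytes, Pklr from liver and red cells, and Ldhb from tissues that oxidise lactate.

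The M1 and M2 forms of pyruvate kinase differ by 1 exon each, and the transcripts of Pkm were therefore kept apart. Both exons are coding and lie on the plus strand of chromosome 9 in GRCm38, the build of the GENCODE M21 annotation used here for names (the deposited table holds no coordinates). The M1 exon is at chr9:59675029-59675195 in transcript ENSMUST00000163694, called the M1 transcript here, and the M2 exon at chr9:59675568-59675734 in ENSMUST00000034834, the M2 transcript. The pair is shown because these bases, with the differing transcript ends, are what lets reads be assigned to one form. Each is 167 bases long, 103 positions carry the same base (61.7%), and capitals mark the 64 that differ.
M1 exon: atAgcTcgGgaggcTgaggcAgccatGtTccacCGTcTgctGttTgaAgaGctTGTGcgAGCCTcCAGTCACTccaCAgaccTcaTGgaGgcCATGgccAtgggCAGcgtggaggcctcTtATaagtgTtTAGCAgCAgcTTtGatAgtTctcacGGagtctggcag
M2 exon: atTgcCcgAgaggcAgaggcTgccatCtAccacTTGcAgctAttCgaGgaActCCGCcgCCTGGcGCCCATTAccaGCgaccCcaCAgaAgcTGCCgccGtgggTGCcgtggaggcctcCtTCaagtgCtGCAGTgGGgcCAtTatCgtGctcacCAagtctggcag

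Samples held between 17786758 and 22862396 estimated counts. On these totals a count of 0 allowed at most 0.131 to 0.169 CPM, the counts scaled to a common library size, for counting error only. This limit was taken before the scaling of library sizes that the levels carry. Levels are CPM on library sizes scaled by the trimmed mean of M-values (TMM), differences are log2 fold changes of lung over cell line with standard error (SE), and the threshold was an adjusted p of 0.05 by edgeR's quasi-likelihood test. By that test 31.3% of all genes were higher and 17.5% lower in lung, and 64.1% of the calls were thus increases. Scaling by library size alone gave 75.1% and moved the median log2 fold change of all genes by 0.23. All 9 lung epithelial markers were higher in lung, with sums of 20830 to 31750 CPM against 1.53 to 2.30 CPM in the cell line (Sftpa1 and Scgb3a2 at 0 there). Most of these 9, like some markers of other lists, passed the filter on low counts through lung alone, which largely set their direction in advance. Epithelial keratin and adhesion genes summed to 2272 to 3817 CPM in lung and 3188 to 7406 CPM in the cell line, with 1 of 5 higher and 1 lower. All 7 B cell and all 7 T cell markers were higher in lung, and their sums in the cell line were 55.7 to 105 and 10.4 to 20.9 CPM against 193 to 391 and 154 to 191 CPM. The libraries of lung replicate 2 and cell line replicate 1 stood apart. Log2 CPM of cell line replicate 1 correlated across genes at 0.965 and 0.964 with the other cell line samples, against 0.991 between those, and its 8 proliferation genes, of which 2 were lower in lung, summed to 520.3 CPM against 2823 and 2891 CPM there and 664.5 to 892 CPM in lung. Lung replicate 2 deviated from the other lung samples by a median of 0.77 on the log2 scale in the quartile of genes with the shortest transcripts and by -0.99 in that with the longest, and its endothelial and fibroblast sums, 817.9 and 937 CPM, were the lowest of the lung samples. Of the other lists, all 6 endothelial and all 7 fibroblast and smooth muscle markers were higher in lung (sums up to 1928 and 2466 CPM against at most 14.8 and 26.03 CPM), as were 3 of 5 muscle markers, with 1 lower (61.3 to 74.5 against 24.5 to 75.7 CPM), and 1 of 4 neuronal markers, with 1 lower (14.2 to 18.5 against 32.2 to 47.6 CPM).

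The 10 genes split by isozyme. The glucose transporter Slc2a1, the hexokinases Hk1 and Hk2, Pkm and Ldha were lower in lung, their alternatives Slc2a3, Hk3, Pklr and Ldhb were higher, and Slc16a3 did not pass the test. The counts were 5 lower, 4 higher and 1 below the threshold, against 17.5% lower and 31.3% higher among all genes. Among the 4 higher, Hk3 passed the filter on low counts through lung alone. The 3 lung and 3 cell line values did not overlap in 9 of 10 genes, against 62.2% of all genes. Whole lung holds many cell types besides tumour cells, and fewer cells of a type and less RNA per cell cannot be told apart in these samples.

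**Figure D1:**
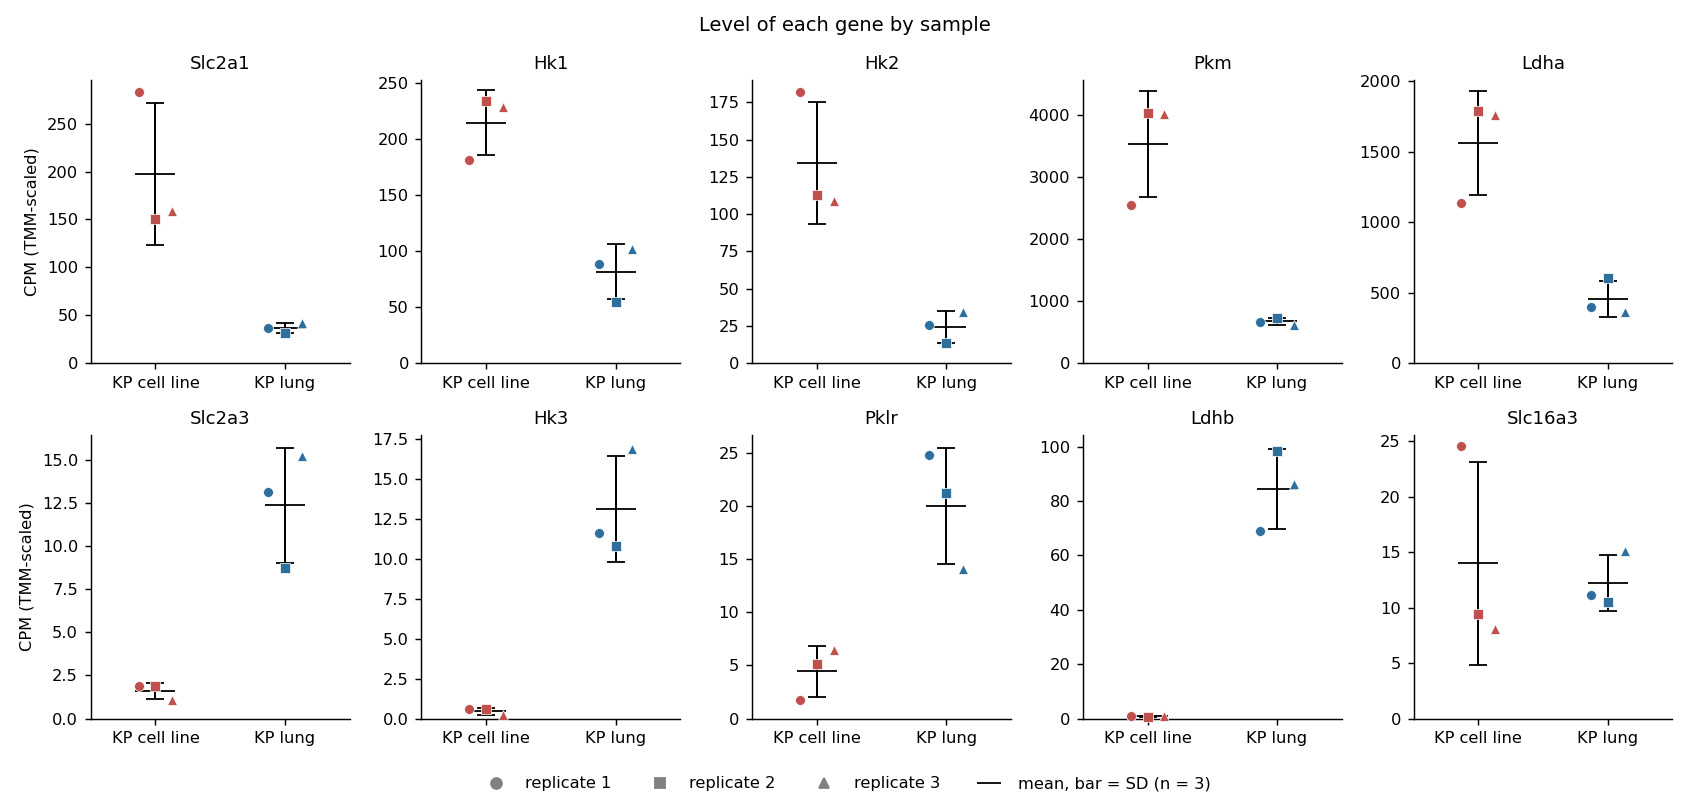
Level of the 10 genes in CPM (vertical axes, each from 0 with its own scale) in the KP cell line and in tumour-bearing lung, with 1 symbol per replicate and bars for mean ± SD of 3 samples. The upper row shows the 5 genes that were lower in lung, such as Pkm at 2544 to 4031 CPM in the cell line and 612 to 732 CPM in lung, and the lower row the 4 that were higher and Slc16a3, whose groups overlap.

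The glucose carriers differed in direction. Slc2a1, which encodes GLUT1, the basal glucose carrier, stood at 37.1, 31.6 and 42.3 CPM in lung replicates 1, 2 and 3 and at 283, 150.1 and 159 CPM in the cell line replicates. Every cell line sample lay above every lung sample, with replicate 1 the highest. The difference was -2.42 (SE 0.33, edgeR adjusted p = 0.000532), a 5.34-fold lower level in lung, and -2.07 without cell line replicate 1. Slc2a3, which encodes the high-affinity carrier GLUT3, went the other way, with 13.1, 8.71 and 15.2 CPM in lung and 1.87, 1.90 and 1.05 CPM in the cell line, without overlap. Its log2 fold change of 2.94 had an SE of 0.39 (edgeR adjusted p = 0.000474). The lowest lung value was that of replicate 2, in which long transcripts were low, and the transcripts of Slc2a3 averaged 4100 bases, and the part of transcript length in that value was not tested.

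Counted per base of transcript, which allows genes to be compared, Slc2a3 made up 18.7%, 15.1% and 20.1% of the sum of Slc2a1 and Slc2a3 in lung and 0.453%, 0.842% and 0.401% in the cell line. The shares of the groups did not overlap, and the means of 18.01% ± 2.58 and 0.566% ± 0.241 (SD, n = 3) differed by 17.4 percentage points (exact two-sided permutation p = 0.1, the lowest value this design allows). Slc2a1 thus remained the more abundant carrier message in all 6 samples.

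The 3 hexokinases, which phosphorylate glucose, changed in different directions. Hk1, the housekeeping form, stood at 88.8, 54.3 and 102 CPM in lung and at 181, 234 and 228 CPM in the cell line. Hk2, the form known from muscle and tumours, stood at 25.6, 13.2 and 34.4 CPM in lung and at 182, 113 and 109 CPM in the cell line. Both were lower in each lung sample than in any cell line sample, Hk1 by 1.39 (SE 0.30, edgeR adjusted p = 0.00559) and Hk2 by 2.46 (SE 0.41, edgeR adjusted p = 0.00144) on the log2 scale. Lung replicate 2 was again the lowest for both, whose transcripts averaged 3851 and 5477 bases, and without it the fold changes were -1.23 and -2.22, both past the threshold.

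Hk3, a hexokinase known from myeloid cells, was at 11.6, 10.8 and 16.9 CPM in lung and at 0.607, 0.576 and 0.211 CPM in the cell line, where the estimated counts were 13, 10 and 4. Its log2 fold change was 4.80 (SE 0.47, edgeR adjusted p = 0.000113), a 27.8-fold higher level in lung. Hk3 passed the filter on low counts through lung alone, which largely set its direction in advance. Leukocyte markers were higher in lung too, as were those of most other cell types listed. All 7 neutrophil markers tested were higher in lung, at summed levels of 193.5 to 342 against 3.58 to 5.65 CPM, and all 10 macrophage and monocyte markers, at 7336 to 9586 against 57.1 to 99.96 CPM, and their part in the level of Hk3 was not tested. Some of these markers, such as Mmp8 and Ear2, also passed the filter through lung alone. The highest Hk3 level was that of lung replicate 3 and the lowest that of lung replicate 2. In lung replicate 2 the macrophage and monocyte sum was highest, as were Lyz2, C1qa, C1qb and Ear2. Csf1r, Adgre1, Cd68, Marco and Chil3 were highest in lung replicate 3, and Ccr2 in lung replicate 1. The neutrophil sum was highest in lung replicate 2, as were S100a8, S100a9 and Retnlg, while the other 5 of the 8 listed neutrophil markers were highest in lung replicate 3. The lowest cell line level of Hk3, in replicate 3, came from 4 estimated counts. Both marker sums were lowest in that sample, but so were the red cell, B cell, T cell, lung epithelial, endothelial and fibroblast sums. The hepatocyte, muscle, neuronal and epithelial keratin and adhesion sums were lowest in cell line replicate 1.

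Per base of transcript the hexokinases together stood at 66.4, 31.8 and 84.5 TPM, the length-scaled relative abundance computed here from annotated lengths, in lung and at 145, 146 and 144 TPM in the cell line. The cell line sum was nearly the same in its 3 samples although their make-up was not: Hk2 held 40.7% of it in replicate 1 and 24.9% and 24.2% in the others, and Hk1 held 59.0%, 74.8% and 75.7%. In lung Hk1 held 70.1%, 63.6% and 67.1%, Hk2 17.4%, 19.8% and 19.4%, and Hk3 12.5%, 16.6% and 13.5%. Hk3 made up at most 0.314% in the cell line. The Hk2 share was lower in lung by 11.1 percentage points (by 5.70 without cell line replicate 1) and the Hk3 share higher by 13.99 points, each without overlap (exact permutation p = 0.1 for both, the smallest possible), while the Hk1 shares overlapped (exact permutation p = 0.6).

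Hk1 also differed in its transcripts, a contrast picked after its values were seen, so its shares are given without a test. Its most abundant coding transcripts, of 3639 and 4278 bases, have different annotated 5′ starts. The one of 3639 bases took 53.5%, 59.1% and 56.6% of the gene's counts in lung and 26.1%, 25.9% and 26.5% in the cell line. That of 4278 bases took 45.5%, 40.6% and 37.4% in lung and 56.1%, 56.1% and 49.5% in the cell line. A coding transcript of 2916 bases took 0.803%, 0% and 5.61% in lung and 17.8%, 17.9% and 23.96% in the cell line, and its lower level in lung did not pass the test (edgeR adjusted p over all transcripts = 0.0509). The groups did not overlap in any of these 3 shares. In level, the transcript of 3639 bases was 44.8, 35.2 and 52.0 CPM in lung and 51.3, 60.9 and 62.0 CPM in the cell line, a log2 difference of -0.40 (SE 0.24, edgeR adjusted p over all transcripts = 0.245), whereas that of 4278 bases was lower in lung by 1.89 (SE 0.26, edgeR adjusted p = 0.0035). Whether the 2 differences differ was not tested. Over all members 30 of 58 transcripts were tested, of which 13 were lower and 6 higher in lung, beside 14.0% lower and 19.1% higher among all transcripts.

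**Figure D2:**
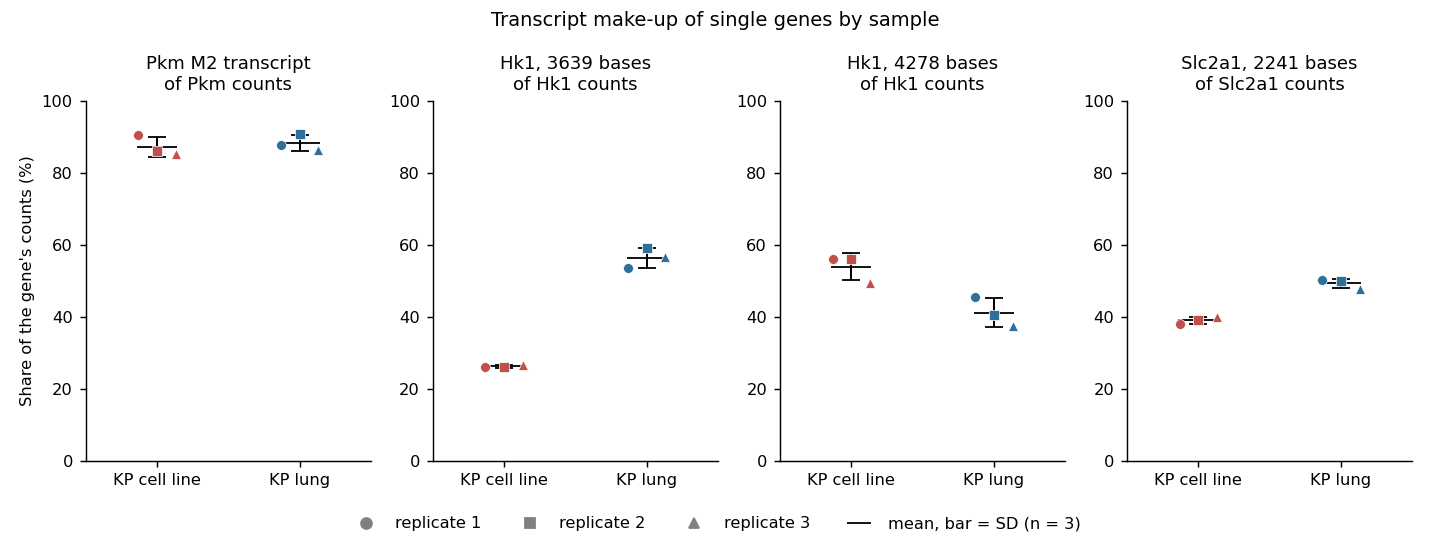
Share of a gene's estimated counts (vertical axes, percent, 0 to 100) held by the M2 transcript of Pkm, the Hk1 transcripts of 3639 and 4278 bases and the Slc2a1 transcript of 2241 bases in each sample, with 1 symbol per replicate and bars for mean ± SD of 3 samples. The shares of the Pkm M2 transcript overlap between lung and cell line, while those of the Hk1 transcript of 3639 bases, at 53.5% to 59.1% against 25.9% to 26.5%, and of the Slc2a1 transcript, at 47.8% to 50.1% against 37.9% to 39.9%, do not.

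A like split was present in Slc2a1, also noticed after the values were seen. A transcript of 2241 bases, which the annotation marks as a target of nonsense-mediated decay, took 50.1%, 49.8% and 47.8% of the gene's counts in lung and 37.9%, 39.1% and 39.9% in the cell line. It was lower in lung by 2.18 (SE 0.33) and the coding transcript of 3260 bases by 2.80 (SE 0.36) on the log2 scale, both past the threshold.

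At the pyruvate kinase step Pkm, the form of most tissues other than liver and red cells, was lower in lung. It stood at 667, 732 and 612 CPM in lung and at 2544, 4031 and 4008 CPM in the cell line. All lung values lay below all cell line values, and the level fell by 2.40 on the log2 scale (SE 0.33, edgeR adjusted p = 0.000575), a 5.26-fold lower level in lung. Cell line replicate 1 was the lowest of its group here, whereas it was the highest for Slc2a1, Hk2 and Slc16a3.

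The M1 and M2 forms of Pkm fell together. The M2 transcript, whose exon is printed above, stood at 551, 730 and 477 CPM in lung and at 2499, 3486 and 3502 CPM in the cell line with a log2 fold change of -2.43 (SE 0.31, edgeR adjusted p over all transcripts = 0.00307). The M1 transcript stood at 70.4, 70.4 and 65.9 CPM in lung and at 241, 519 and 563 CPM in the cell line with a log2 fold change of -2.68 (SE 0.37, edgeR adjusted p = 0.00373). Both were past the threshold in the same direction. Of 11 Pkm transcripts 8 were tested, 7 were lower and 0 higher by edgeR, beside 14.0% lower and 19.1% higher among all transcripts. All fitted values were below 0. Those of 1017, 725, 743 and 582 bases held only 0 to 7 estimated counts in each lung sample. They passed the filter on low counts through the cell line alone, which largely set their direction in advance. The calls of 2 minor ones, one with a retained intron and one short, were lost without lung replicate 1, cell line replicate 2 or cell line replicate 3 (edgeR adjusted p up to 0.0555 and 0.0795), and that of the short one also without lung replicate 2.

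The share of transcripts with the M2 exon among those with either exon, per base of transcript, was 85.5%, 89.3% and 83.9% in lung and 89.4%, 84.6% and 83.6% in the cell line. The ranges overlapped almost completely, and the means of 86.2% ± 2.78 and 85.9% ± 3.13 (SD, n = 3) differed by 0.354 percentage points (exact two-sided permutation p = 0.8). The M2 form was thus the major one in all 6 samples, and no difference in the share was detectable with 3 samples a group. Leaving out single samples moved the difference between -1.19 (without lung replicate 2) and 2.14 points, and it was also below 0 without cell line replicate 2 (-0.298) or 3 (-0.778).

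Of 4 splicing factors known to act on the choice between these exons, 2 were lower in lung (1 without lung replicate 1 or 3 or cell line replicate 2 or 3, and with library size alone) and 0 higher, all 4 fitted values being below 0 (median -0.97). Ptbp1, a repressor of the M1 exon, stood at 278.5 ± 34.7 CPM in lung against 665.5 ± 162 CPM in the cell line, with a log2 fold change of -1.26 (edgeR adjusted p = 0.00874). Hnrnpa1, which acts with it, stood at 412 ± 18.4 and 953 ± 366 CPM (log2 fold change -1.21, edgeR adjusted p = 0.0237), and its call was lost without lung replicate 1 or 3 or cell line replicate 2 or 3 (edgeR adjusted p up to 0.0762). Hnrnpa2b1 and the splicing activator of the M2 exon Srsf3 were at -0.73 and -0.46 and did not pass the test (edgeR adjusted p = 0.189 and 0.249). Hnrnpa2b1 passed without cell line replicate 1 (-1.08, adjusted p = 0.0249).

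Pklr, the pyruvate kinase of liver and red cells, was higher in lung. It stood at 24.8, 21.2 and 14.1 CPM in lung and at 1.77, 5.18 and 6.43 CPM in the cell line, without overlap. The log2 fold change was 2.17 (SE 0.48, edgeR adjusted p = 0.00656). All 7 red cell markers were higher in lung, at summed levels of 516, 2093 and 1126 CPM in replicates 1, 2 and 3 against 20.02 to 32.6 CPM. Among the lung samples Pklr was highest in replicate 1 and lowest in replicate 3, and the red cell sum was highest in replicate 2 and lowest in replicate 1. Long transcripts were low in lung replicate 2, those of Pklr averaged 2805 bases, and the part of transcript length in these orders was not tested. All 4 hepatocyte markers tested were also higher, at 75.5, 125 and 28.5 CPM in lung against 0.140 to 0.421 CPM, with Serpina1a and Fgb at 0 counts in the cell line. These 4 held 0 to 15 estimated counts over all cell line samples. They passed the filter on low counts through lung alone, which largely set their direction in advance. The part of red cells and hepatocytes in the level of Pklr was not tested. Reads were divided unevenly between its transcripts, that of 2787 bases being at 23.6%, 69.9% and 50.5% of the counts in lung and at 0%, 98.8% and 97.1% in the cell line, and neither of the 2 main ones passed the test alone (edgeR adjusted p = 0.521 and 0.123).

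Lactate dehydrogenase is a tetramer of A and B subunits in any ratio, and its genes gave the widest contrast of the set. Ldha, the subunit favoured in glycolytic cells, stood at 401, 602 and 359 CPM in lung and at 1137, 1786 and 1761 CPM in the cell line. It was lower in every lung sample, by 1.78 on the log2 scale (SE 0.35, edgeR adjusted p = 0.00335), and by 2.10 without lung replicate 2, the highest of the lung samples. Ldhb, the subunit of heart and other oxidative tissues, stood at 68.9, 98.3 and 86.1 CPM in lung and at 0.887, 0.634 and 1.05 CPM in the cell line, from 19, 11 and 20 estimated counts. Its log2 fold change was 6.61 (SE 0.34, edgeR adjusted p = 1.5e-05), a 97.4-fold higher level in lung, and stayed between 6.35 and 6.73 with any 1 sample left out.

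The cell line was thus nearly without Ldhb message. Ldhb made up 17.4%, 16.7% and 22.7% of the sum of both subunits per base of transcript in lung and 0.0945%, 0.0918% and 0.0726% in the cell line, a difference of 18.9 percentage points (exact permutation p = 0.1, the smallest possible). The transcripts of both genes are short, at 1586 and 1295 bases on average, and lung replicate 2 was highest in level for both but lowest in the share. Several marker lists were low in the cell line too. Hepatocyte, lung epithelial, neutrophil and endothelial sums were there at most 0.421, 2.30, 5.65 and 14.8 CPM. T cell, fibroblast and smooth muscle, and red cell sums were at most 20.95, 26.03 and 32.6 CPM. Neuronal, muscle, macrophage and monocyte, and B cell sums reached 47.6, 75.7, 99.96 and 105 CPM. The part of any of these cell types in the level of Ldhb was not tested.

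**Figure D3:**
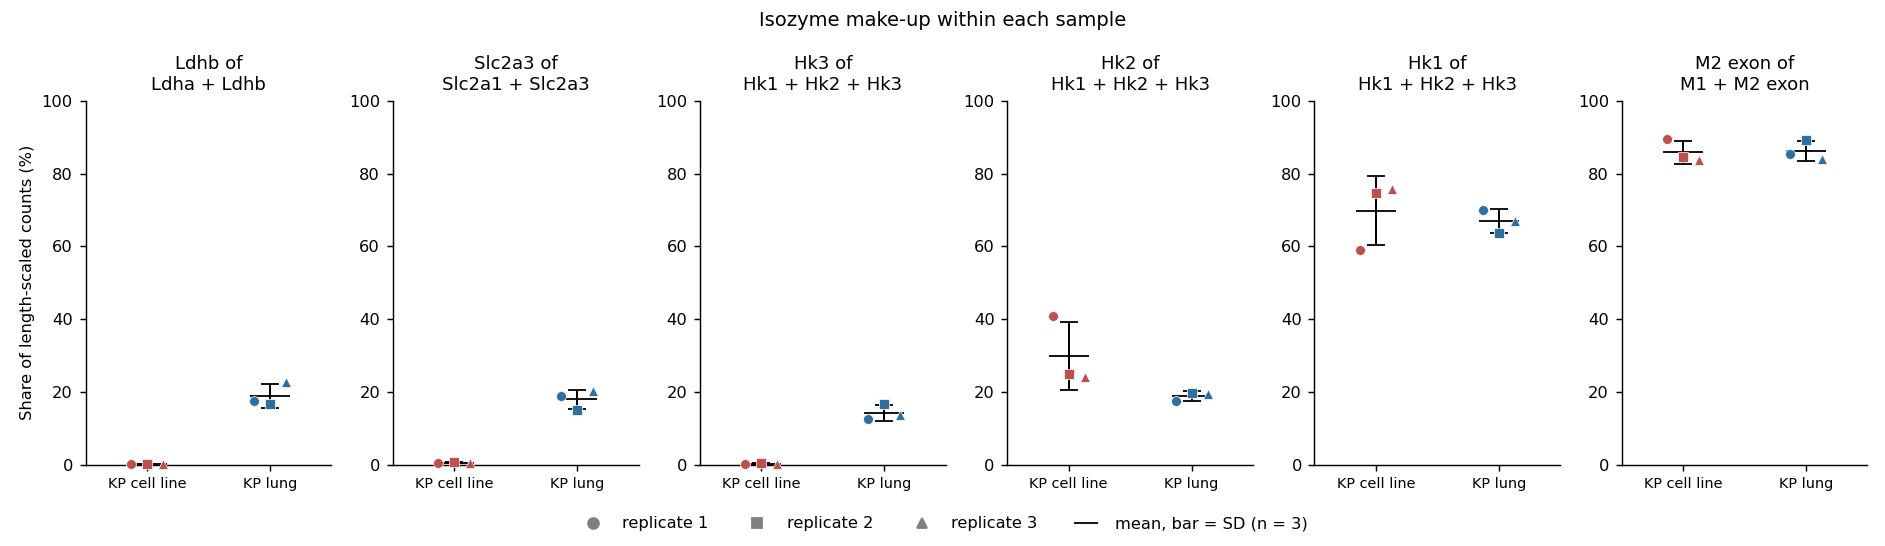
Share of each isozyme in its family within each sample (vertical axes, percent of counts per base of transcript, 0 to 100), with 1 symbol per replicate and bars for mean ± SD of 3 samples. Ldhb, Slc2a3 and Hk3 lie below 1% in the cell line and between 12.5% and 22.7% in lung, the Hk2 shares of lung lie below those of the cell line, and the Hk1 and M2 exon shares overlap.

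Slc16a3, the carrier MCT4 that exports lactate from glycolytic cells, was the 1 gene that did not pass the test. It stood at 11.2, 10.5 and 15.1 CPM in lung and at 24.5, 9.39 and 8.06 CPM in the cell line. The groups overlapped because cell line replicate 1 lay above all other samples and the other cell line samples below all lung samples. The log2 fold change was -0.20 (95% interval -1.22 to 0.83, edgeR adjusted p = 0.741), which leaves room for a difference of over 2-fold downwards. Without cell line replicate 1 it was 0.48 (edgeR adjusted p = 0.184).

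**Figure D4:**
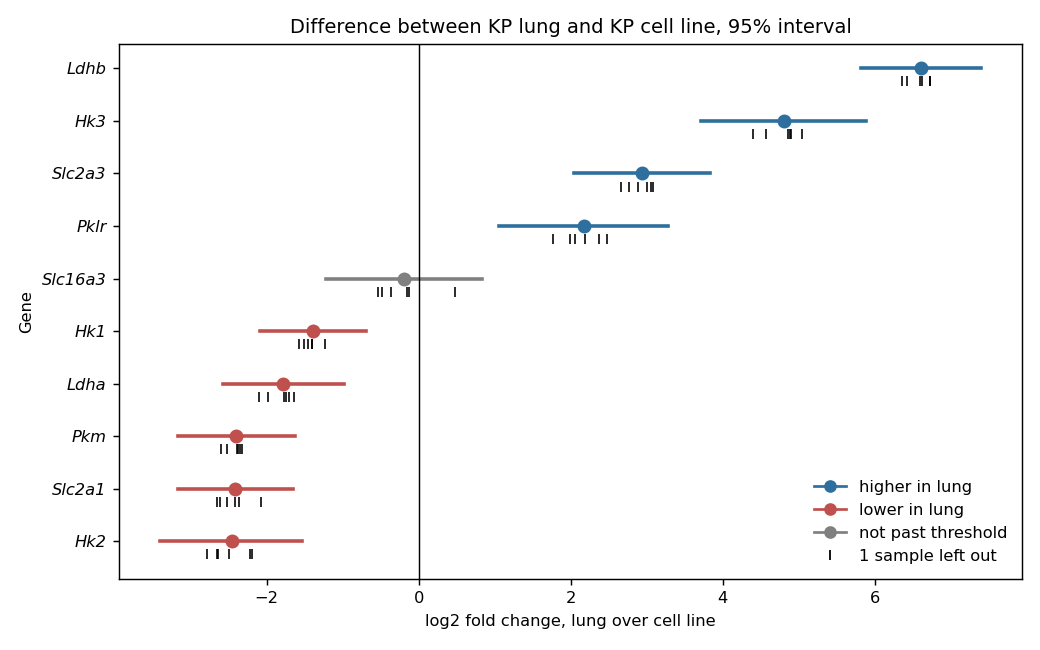
Log2 fold change of lung over cell line for the 10 genes (horizontal axis; points, with lines for the 95% interval of the edgeR fit) and the values with each of the 6 samples left out in turn (ticks below each line). The values run from -2.46 for Hk2 to 6.61 for Ldhb, and the interval of Slc16a3 alone spans 0.

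Ordered per base of transcript, Pkm and Ldha led in both groups. In the cell line they stood at 2675 ± 644 and 1751 ± 400.3 TPM with overlapping ranges, followed by Slc2a1 (127 ± 48.1 TPM) and Hk1 (101.5 ± 13.7 TPM), which overlapped, then Hk2 (43.5 ± 13.6), Slc16a3 (12.8 ± 8.21), Pklr (3.19 ± 1.93), Ldhb (1.496 ± 0.315), Slc2a3 (0.690 ± 0.240) and Hk3 (0.325 ± 0.163 TPM). Pklr overlapped Ldhb and Slc2a3 overlapped Hk3. In lung Pkm (523 ± 71.8 TPM) and Ldha (512 ± 34.3 TPM) were followed by Ldhb (119 ± 18.1 TPM), which had moved from eighth to the third place, and by Hk1 (41.2 ± 18.8 TPM). From Hk1 downwards each gene overlapped the next: Slc2a1, Pklr, Hk2, Slc16a3, Hk3 and Slc2a3, the last at 6.02 ± 2.69 TPM.

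The rest of the pathway, from 7 lists of 72 genes of which 64 were tested, is given by list. In these lists together 19 genes were higher and 23 lower, and 22 and 16 with library size alone. Among all genes 31.3% were higher and 17.5% lower. Among the other glycolytic enzymes 10 of 19 were lower and 5 higher, with a median log2 fold change of -0.91 against 0.08 over all genes. Those that fell were led in level by Gapdh, which makes the NADH of glycolysis (1046 ± 371 against 3494 ± 273 CPM, log2 fold change -1.74), and the enolase Eno1 (364 ± 76.9 against 1888 ± 338 CPM, -2.38). Gapdh, like Pkm and Ldha, has near-identical pseudogenes, so these levels depend on how reads were assigned. Those that rose were led in level by the D-lactate dehydrogenase Ldhd (16.6 ± 3.62 against 4.73 ± 0.145 CPM, 1.81) and the hexokinase-like Hkdc1 (7.68 ± 3.09 against 0.675 ± 0.601 CPM, log2 fold change 3.47, and 4.49 without cell line replicate 1).

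Of 16 genes that set fructose 2,6-bisphosphate, a glycolytic activator, or the pyruvate dehydrogenase complex, 6 were lower and 3 higher, with a median of -0.57. Without lung replicate 2 these counts were 8 and 5, and 4 were lower without lung replicate 1. With library size alone 4 were lower and 5 higher, so the more frequent direction depended on the scaling. Pdha1, a subunit of that complex, was at 164 ± 16.3 against 335.5 ± 42.2 CPM (-1.03), and Dld, another, was at -0.92, a call lost without lung replicate 1 or 3 (edgeR adjusted p = 0.052 and 0.0625). Pfkfb4, a kinase that makes the activator, was at 41.4 ± 9.88 against 8.71 ± 0.213 CPM (2.25), and Pdk2, a kinase that inhibits the complex, was higher by 1.94.

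Transport and gluconeogenesis were covered by 3 lists. Of 8 other hexose transporters tested 6 were higher and 0 lower by edgeR (median 4.47). Those lower were also 0 at an unadjusted p under 0.05 and by DESeq2 or limma-voom. The 6 held between 0 (Slc5a1) and 49 (Slc2a9) estimated counts over all cell line samples. Most passed the filter on low counts through lung alone, which largely set their direction and the median in advance. With a filter of 10 counts in each of the 6 samples, 0 were higher and 0 lower. Among those higher, the highest mean levels were those of the urate carrier Slc2a9 (6.96 ± 0.857 against 0.819 ± 0.406 CPM) and Slc2a10 (6.05 ± 2.72 against 0.153 ± 0.0919 CPM). Of 6 other monocarboxylate carriers and partners 3 were higher and 1 lower (median 1.22). Slc16a1, the carrier MCT1, was the lower one (81.6 ± 20.2 against 298 ± 103 CPM, -1.87), while Emb, a chaperone of such carriers, was at 113 ± 17.7 against 3.97 ± 0.622 CPM (4.83) and Mpc1, of the mitochondrial pyruvate carrier, was higher by 1.52. Bsg, the usual chaperone of MCT1 and MCT4, was at 474 ± 125 and 481 ± 52.1 CPM (-0.02, edgeR adjusted p = 0.962), and was named after its values were seen. Of 4 gluconeogenesis genes tested (median 1.16) Pcx (2.0) and Fbp2 (1.96) were higher and Pck2 (-1.47) lower. The call of Fbp2 was lost without lung replicate 1 or 2 or cell line replicate 1 or 2 (edgeR adjusted p up to 0.145) and that of Pck2 without any 1 lung sample (up to 0.0712), and Pck2 was at -0.77 without cell line replicate 1.

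In the pentose phosphate pathway, which makes NADPH and ribose from glucose, 3 of 7 genes were lower and 0 higher by edgeR (median -0.62), and those higher were also 0 at an unadjusted p under 0.05 and by DESeq2 or limma-voom. Pgd, its second dehydrogenase, was at 163 ± 4.87 against 318 ± 17.4 CPM (-0.97), and Tkt, transketolase, was at -0.77, a call lost without lung replicate 1 or 3 or cell line replicate 2 or 3 (edgeR adjusted p up to 0.132). The number lower was 1 without each of these samples or with library size alone, and 5 without lung replicate 2.

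**Figure D5:**
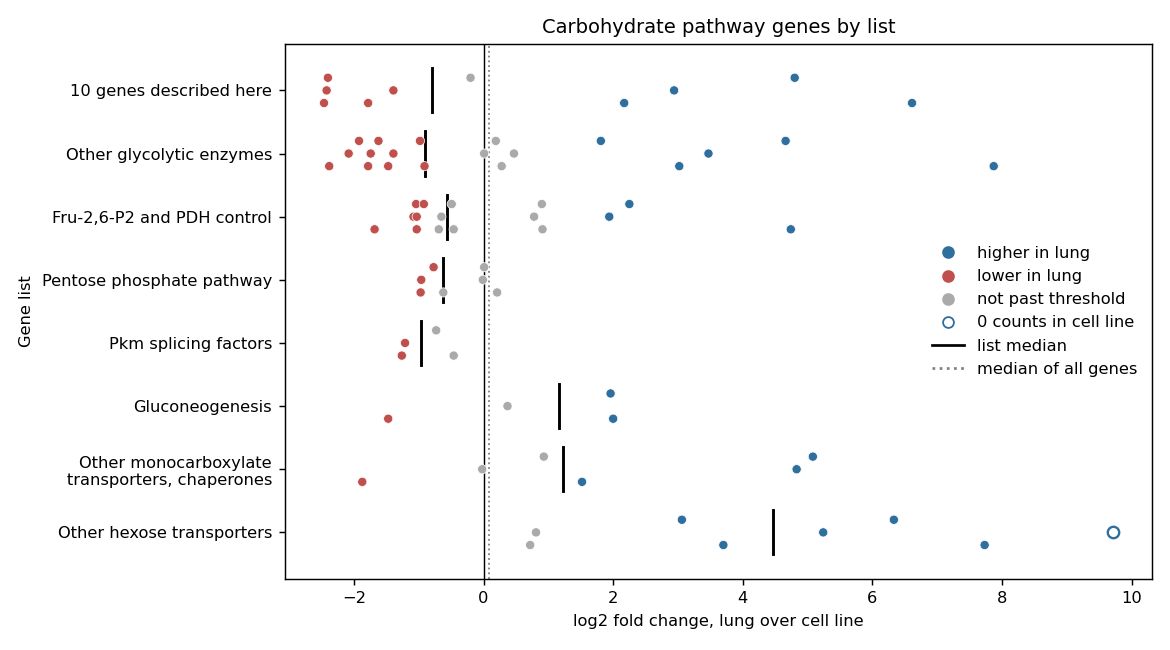
Log2 fold change of lung over cell line (horizontal axis) for each tested gene of the 10 described and of the 7 other lists (rows), coloured by the edgeR call, with black bars for list medians and a dotted line at 0.08, the median of all genes. The open point is Slc5a1, at 5.11, 1.28 and 8.78 CPM in lung replicates 1, 2 and 3 and at 0 counts in the cell line. Its plotted value is fitted and not a bound. Medians run from -0.97 for the splicing factors to 4.47 for the other hexose transporters, most of which passed the filter through lung alone.

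Ldhb and Hk2 were also compared with all genes of 10 CPM or more on average by the correlation of log2 CPM over the 6 samples, which share 2 groups that alone give high values. Nearest to Ldhb, the member with the largest rise, were Lyz1, a lysozyme (r = 0.9998), Ginm1 (0.9995) and As3mt, an arsenic methyltransferase (0.9994), and 252 of 10478 genes had r above 0.99. Nearest to Hk2, the member with the largest fall, were Sgsm1 (0.9999), Mgat3, a glycosyltransferase (0.9994), and the survival gene Bcl2 (0.999), with 65 genes above 0.99. Like Hk2, these 3 were highest in cell line replicate 1 and lowest in lung replicate 2.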

How the data were processed

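RNA from 3 KP cell line and 3 tumour-bearing lung samples was analysed from 1 table of estimated counts per transcript, as deposited by the authors. FastQC 0.11.9, Salmon 1.4.0, DESeq2 1.32.0 and GRCm39 were used, per the submitters' processing notes; what each did, the annotation and any filter were not stated. The labels name collagenase digestion, a stranded mRNA kit and also a Nugen amplification. Of 76776 transcripts, 76521 (99.67%) matched GENCODE M21 (GRCm38), used for names, transcript lengths and the exon sequences, and were summed to 20687 symbols; the others held 0.107% to 0.416% of counts. Sums were rounded and tested with edgeR 4.0.16 in R 4.3.3 (quasi-likelihood F test, robust, TMM, the package's expression filter, group only), with Benjamini-Hochberg adjustment over 15212 genes or 36200 transcripts. SE is the log2 fold change over the root of F. Shares used counts divided by annotated length and exact permutation tests. The fit was tested on simulated data, where the smaller changes were mostly missed and the share of false calls was above the threshold. Members and lists were chosen with earlier results of these data known. Named pathway genes are the 2 of highest mean CPM per list and direction past the threshold, all splicing factors, and the 3 genes best correlated with the members of largest and smallest fold change; exceptions are stated. The alternatives were DESeq2 1.42.0 size factors and Wald test, library size alone, limma-voom (limma 3.58.1), other filters, the replicate block and left-out samples.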

Additional observations from a re-analysis of the deposited data

How the results depend on the processing

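Over 14 other settings, 136 of 139 fold changes of the 10 genes kept their direction and side of the threshold, and 5 genes were lower in each. The number higher was 4 in each except with a filter of 10 counts in each of the 6 samples, where Hk3 was not tested (3), and without cell line replicate 1 and lung replicate 2 together, where Slc16a3 passed (5). The other 3 fold changes were those of Slc16a3, 0.02 with library size alone, 0.48 without cell line replicate 1 (-0.53 to 0.48 over all samples left out singly) and 0.58 (edgeR adjusted p = 0.0443) without cell line replicate 1 and lung replicate 2 together. Over all genes, 1728 were lower with library size alone, 2555 higher and 1701 lower with that filter (fewer genes tested, and 8 pathway genes higher instead of 19), and 5425 lower without both samples. The difference in Hk1 share was 7.12 points with counts not divided by length and -8.31 to 0.0318 with single samples left out, and that of the M2 share -1.19 to 2.14; the cause was not tested. Replicate numbers share only a number: deviations of same-numbered samples correlated at -0.042, 0.082 and -0.083, and 1 of 3 lung samples correlated best with its own number. With the replicate block 4634 genes were higher and 2526 lower, and 4 and 5 of the 10 genes. The calls of Dld, Hnrnpa1, Pck2 and Tkt were also lost with library size alone and with the filter of 10 counts, and the block ended those of Tkt and 3 minor Pkm transcripts. Hk3, Ldhb and Slc2a3 rest on 4 to 40 counts in cell line samples, which limits their fold changes there.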
